A study of Homo sapiens with 6 samples.

Results

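The MYC and MAX network is a family of transcription factors of the basic helix-loop-helix leucine zipper class, and it was examined here in MDA-MB-231-DR cells with and without cyperotundone (CYT). Its 10 members were taken by gene symbol from the deposited table of 58302 genes, namely MYC, MAX, MXD1, MXD3, MXD4, MXI1, MNT, MGA, MLX and MLXIP. All 10 were found, each on a single row, and all 10 passed the filter on low counts. MDA-MB-231-DR cells resist doxorubicin and are grown in a little of it, and their parent, MDA-MB-231, is a triple-negative breast cancer line. The labels name MDA-MB-231 as the source of all libraries and mark resistance in the sample titles alone. The series has 3 control libraries of these cells and 3 libraries of the same cells treated with CYT, a main active component of sedge. The dose of CYT, the treatment time and the vehicle of the control were not given for these libraries in the sources used here. Both groups come from the same resistant line, and parental cells are not part of the comparison.

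MAX is the common partner of this network. MYC binds DNA together with MAX and activates genes of ribosome production, metabolism and cell division, whereas the MXD proteins, MXI1, MNT and MGA compete for MAX and repress genes. MLX is a second common partner, which joins MLXIP (MondoA), a glucose-responsive activator of TXNIP and ARRDC4, and it can also pair with MXD1, MXD4 and MNT. Both branches recognise the E-box, whose core letters are CACGTG.

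Promoter windows are shown for MXD1 and MLX, the members that passed the test between the groups, and for ARRDC4, a target of MLXIP with MLX. Each window runs from 250 bases before to 50 bases after a RefSeq start (GRCh38.p14) and is written 5′ to 3′ on the gene's own strand, which is the plus strand for these genes. Capitals mark the E-box in MLX and ARRDC4, and the GC boxes with the letters GGGCGG in MXD1, whose window holds no E-box.
MXD1, chr2:69914859-69915158: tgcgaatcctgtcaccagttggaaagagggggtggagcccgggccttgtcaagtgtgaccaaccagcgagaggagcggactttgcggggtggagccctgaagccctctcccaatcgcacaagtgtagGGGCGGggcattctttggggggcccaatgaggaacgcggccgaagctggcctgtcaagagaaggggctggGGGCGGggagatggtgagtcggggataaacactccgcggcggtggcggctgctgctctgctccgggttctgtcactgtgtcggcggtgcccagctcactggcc
MLX, chr17:42566850-42567149: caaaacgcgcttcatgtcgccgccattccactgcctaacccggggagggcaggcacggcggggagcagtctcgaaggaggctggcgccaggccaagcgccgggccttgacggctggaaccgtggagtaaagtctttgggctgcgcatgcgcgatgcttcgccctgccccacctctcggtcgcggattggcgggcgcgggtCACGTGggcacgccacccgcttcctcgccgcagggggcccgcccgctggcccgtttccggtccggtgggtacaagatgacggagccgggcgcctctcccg
ARRDC4, chr15:97960453-97960752: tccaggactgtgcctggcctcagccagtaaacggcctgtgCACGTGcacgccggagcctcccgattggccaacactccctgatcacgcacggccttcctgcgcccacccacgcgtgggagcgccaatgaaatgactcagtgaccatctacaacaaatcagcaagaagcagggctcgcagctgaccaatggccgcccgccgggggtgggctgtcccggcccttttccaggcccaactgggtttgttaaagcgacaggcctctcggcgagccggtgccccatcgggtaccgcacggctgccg
The E-box began 50 bases before the start in MLX and 210 bases before it in ARRDC4. RefSeq windows were found for 9 of the 10 members, all except MYC, with 14 windows in all. Of these 9 members, MLX, MNT and MXD4 had an E-box in a window, and the box began 193 bases before the start in MNT and 238 before it in MXD4. Among all 35116 RefSeq windows, 7.26% held CACGTG, which reads the same on both strands. GGGCGG or its reverse complement was present in at least 1 window of each of the 9 members, though MAX and MGA also had windows without it. It was present in 45.0% of all windows. Members were counted by gene, some with several windows, whereas the shares of all RefSeq windows are per window. The counts of members and these shares are therefore not directly comparable.

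Depth, as the sum of gene counts, was 14050849 to 17770102 for control libraries and 13056270 to 14106017 for CYT libraries. Values of single libraries are listed in the order of replicates 1, 2 and 3. Levels are given in CPM, that is, counts scaled to the TMM-normalized library size, and differences as the log2 fold change of CYT over control. Adjusted p values are from edgeR's quasi-likelihood test over 15572 genes with Benjamini-Hochberg adjustment, and an adjusted p under 0.05 was taken as a call. By this rule 15.7% of all genes tested were higher and 12.9% were lower after CYT treatment, 28.6% in all. The labels do not say whether replicates were separate cultures, so the p values measure the spread between these libraries, which may be technical. Of the markers of the line, VIM was at 2259 to 2742 CPM in control and 911 to 1119 CPM in CYT libraries, and CD44, CAV1, AXL and KRT18 were present in every library. ESR1, PGR, CDH1, PTPRC, PECAM1 and EPCAM did not exceed 2.52 CPM in any library, whereas ERBB2 ran from 16.8 to 82.3 CPM. The summed CPM of PTPRC, PECAM1 and EPCAM, which mark leukocytes, endothelium and luminal epithelium, was 1.81 to 3.02 across control and 1.67 to 2.26 across CYT libraries.

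CYT replicate 2 stood apart from the other CYT libraries. Its log2 values correlated with those of CYT replicates 1 and 3 across genes with r = 0.905 and 0.904, against 0.970 between the latter pair. Across 15542 genes, the difference of CYT replicate 2 from the mean of the other CYT libraries correlated with the GC content of the longest transcript with r = -0.714, a description over genes of the same libraries. Over the 10 members the same correlation was -0.81. The 3 members with the lowest GC content (MGA, MXD1 and MXI1, from 42.0% to 43.8%) were higher in CYT replicate 2 by 0.58 to 1.13 on the log2 scale. MXD4, MLXIP, MXD3 and MNT, from 57.6% to 61.4% GC, were lower there by values from -2.36 to -0.73. Control replicate 2 showed a correlation with GC content of -0.479 over all genes. A fit corrected for GC content and length is given beside the members whose call or sign it changed.

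**Figure D1:**
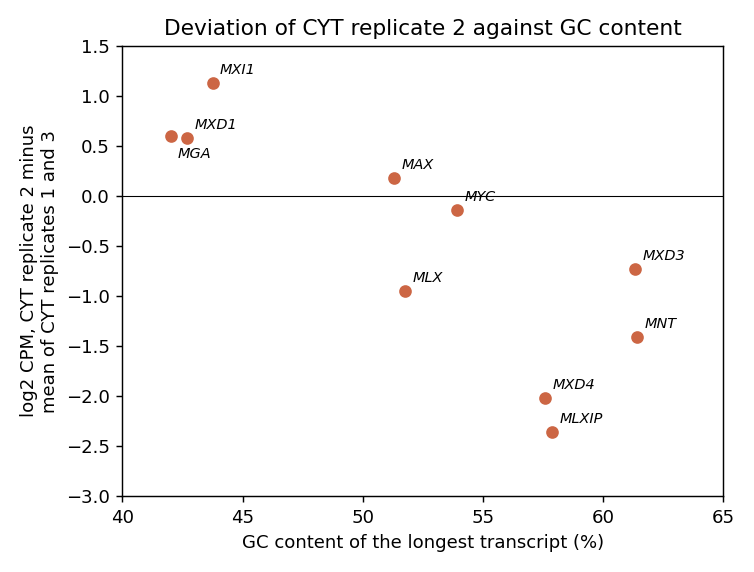
The difference of CYT replicate 2 from the mean of CYT replicates 1 and 3 (vertical axis, log2 CPM) is plotted against the GC content of the longest GENCODE transcript (horizontal axis, percent), 1 point for each of the 10 members. MXI1 lies highest at 1.13 and MLXIP lowest at -2.36, and the 3 members under 45% GC lie above 0.

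Of the 10 members, 1 was called higher (MXD1) and 1 was called lower (MLX) after CYT treatment, so 2 of 10 were called, against 28.6% of all genes tested. In the same members alone the libraries of the groups did not overlap, whereas 46.1% of all genes tested had no overlap in either direction. A bulk library does not tell fewer cells of a type from less RNA per cell. The median log2 fold change of the members was 0.18, and that of all genes tested was 0.0064. Leaving out 1 library moved the member median from 0.078, without control replicate 2, to 0.39, without control replicate 1, and it was 0.43 with the GC content and length correction. The other 8 members had intervals that included 0 and reached to between 0.50 and 2.57 above it, and to between -1.75 and -0.044 below it.

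**Figure D2:**
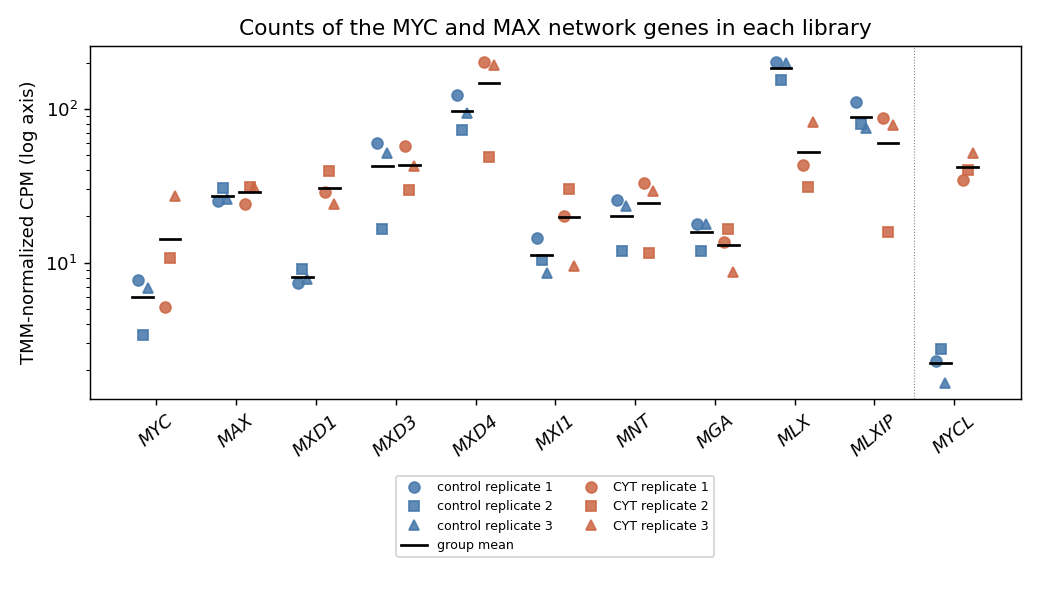
TMM-normalized CPM on a log axis is plotted for each of the 10 members and, right of the dotted line, for MYCL, with 1 symbol for each library and a black bar at each group mean. Control and CYT symbols separate for MXD1, MLX and MYCL, and CYT replicate 2 (squares) lies far below the other CYT libraries for MXD4 and MLXIP.

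**Figure D3:**
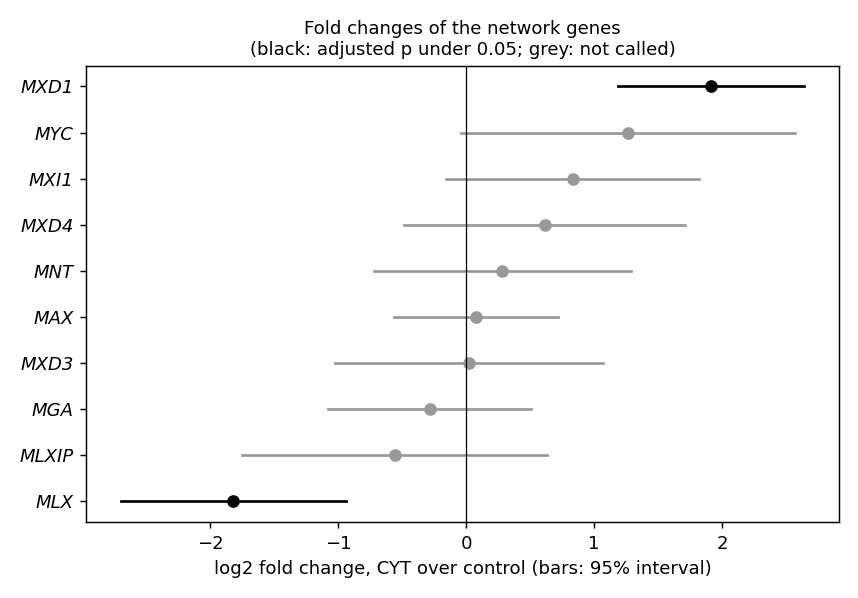
The log2 fold change of CYT over control (horizontal axis) is plotted for each member with its 95% interval, black where the adjusted p was under 0.05 and grey elsewhere. MXD1 at 1.91 and MLX at -1.82 are the black points, and every grey interval crosses 0.

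MYC (ENSG00000136997), the activator of the network, is a plus-strand gene of chromosome 8 (GRCh38, 127735434 to 127741434). Control libraries held 124, 64 and 95 reads of MYC, and CYT libraries held 73, 151 and 341. These are 7.69, 3.41 and 6.83 CPM for control against 5.15, 10.7 and 27.1 CPM for CYT. CYT replicates 2 and 3 were above every control library, whereas CYT replicate 1 lay within the control range. The mean was 5.98 ± 2.27 (SD, n = 3) in control and 14.3 ± 11.4 CPM (SD, n = 3) in CYT-treated cells. A log2 fold change of 1.26 resulted, which was not called (standard error, SE, 0.58, 95% interval -0.044 to 2.57, adjusted p = 0.134, edgeR). Without CYT replicate 3 it was 0.43 (adjusted p = 0.578, edgeR), and without CYT replicate 1 it was 1.66 (adjusted p = 0.0513, edgeR). No alternative fit called MYC, in either direction.

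Of the paralogs outside the member list, MYCL rose in every CYT library. MYCL encodes L-Myc, which also pairs with MAX. Control libraries held 37, 52 and 23 of its reads, against 488, 564 and 648 for CYT. The level was 2.24 ± 0.560 CPM (SD, n = 3) in control and 42.0 ± 8.69 CPM (SD, n = 3) in CYT-treated cells, a ratio of means of 18.8. On the log2 scale the change was 4.22 (SE 0.37, adjusted p = 0.00033, edgeR), and MYCL was called higher in all 16 other fits, with log2 fold changes from 2.36 to 4.39. MYCN had no count in any library. MLXIPL, the paralog of MLXIP, had from 2 to 15 counts and did not pass the filter.

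MAX (ENSG00000125952; chromosome 14, 65006174 to 65102695, minus strand) had close values in all 6 libraries. MAX was at 25.1, 30.5 and 26.0 CPM without and 23.9, 31.0 and 31.2 CPM with CYT, and the groups overlapped. Its log2 fold change was 0.076 (SE 0.29, 95% interval -0.563 to 0.715, adjusted p = 0.867, edgeR), and its sign changed under the correction for GC content and length.

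Among the MXD genes, MXD1 rose, and the others were not called. MXD1 (ENSG00000059728; chromosome 2, 69897688 to 69942945, plus strand) encodes the repressor MAD1, best known from differentiating cells. Control libraries held 120, 171 and 109 of its reads, and CYT libraries 409, 551 and 301. In CPM, MXD1 was at 7.44, 9.11 and 7.84 without and 28.8, 39.2 and 23.9 with CYT. The lowest CYT library exceeded the highest control library (p = 0.1 by an exact two-sided permutation test, which 3 against 3 libraries cannot go below). MXD1 had a log2 fold change of 1.91 (SE 0.32, 95% interval 1.19 to 2.64, adjusted p = 0.00287, edgeR), a ratio of means of 3.77. It was called higher in all 16 other fits, with log2 fold changes from 1.04, in limma on log2(FPKM + 1), to 2.08. MXD1 shares 237 exonic bases with SNRNP27 on the same strand, and reads from these bases may have gone to either gene. SNRNP27 gained 12.2 CPM while MXD1 gained 22.5 CPM, and its part in the result was not tested.

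MXI1 (ENSG00000119950; chromosome 10, 110207605 to 110287365, plus strand) encodes a close relative of MXD1. MXI1 was at 14.6, 10.4 and 8.56 CPM without and 20.03, 30.3 and 9.46 CPM with CYT. CYT replicate 3 lay within the control range, and the log2 fold change of 0.83 was not called (95% interval -0.16 to 1.82, adjusted p = 0.186, edgeR). It was 0.40 without CYT replicate 2, in which MXI1 was highest, and 0.53 with the GC content and length correction. MXD4 (ENSG00000123933; chromosome 4, 2247432 to 2262294, minus strand) is a further repressor of the MXD class. MXD4 was at 123, 73.2 and 93.9 CPM without and 202, 48.5 and 193 CPM with CYT. CYT replicate 2 was below the whole control range, and the other CYT libraries were above it. The MXD4 log2 fold change was 0.61 (95% interval -0.48 to 1.71, adjusted p = 0.380, edgeR). Without CYT replicate 2, MXD4 was called higher, with a log2 fold change of 1.03 (adjusted p = 0.0156, edgeR), whereas it was 0.32 without CYT replicate 1 (adjusted p = 0.720, edgeR). MXD3 (ENSG00000213347; chromosome 5, 177301461 to 177312757, minus strand) is a repressor known from proliferating cells. MXD3 spanned 16.6 to 59.7 CPM without and 29.7 to 57.5 CPM with CYT. Its log2 fold change of 0.019 was not called (adjusted p = 0.980, edgeR), and its sign changed without a filter and when single libraries were left out. MXD3 shares exonic bases with PRELID1 on the opposite strand and RAB24 on its own strand, and the counting of such reads was not stated.

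MNT and MGA, the remaining repressors, were not called. MNT (ENSG00000070444; chromosome 17, 2384060 to 2401118, minus strand) is the widely expressed antagonist of MYC. MNT spanned 11.9 to 25.4 CPM without and 11.6 to 32.8 CPM with CYT, with the lowest value of each group in replicate 2. Its log2 fold change was 0.28 (95% interval -0.72 to 1.29, adjusted p = 0.672, edgeR), and it was 0.0062 without control replicate 2, 0.014 without CYT replicate 1 and 0.62 without CYT replicate 2. In the fit that held the replicate block as well as the correction, it was 0.63 and called (adjusted p = 0.0383, edgeR). MGA (ENSG00000174197; chromosome 15, 41621224 to 41773081, plus strand) is a large scaffold that joins MAX in a Polycomb repressive complex. MGA spanned 12.0 to 17.8 CPM without and 8.74 to 16.6 CPM with CYT, with a log2 fold change of -0.29 (95% interval -1.08 to 0.50, adjusted p = 0.577, edgeR). Leaving out 1 library moved it from -0.50, without CYT replicate 2, to -0.048, without CYT replicate 3.

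In the MLX branch, MLX fell and MLXIP was not called. MLX (ENSG00000108788) lies on chromosome 17 from 42567068 to 42573239, on the plus strand. Control libraries held 3248, 2886 and 2749 of its reads, and CYT libraries 612, 434 and 1036. In CPM, MLX was at 201, 154 and 198 without and 43.2, 30.9 and 82.3 with CYT. The highest CYT library was below the lowest control library (p = 0.1 by an exact two-sided permutation test). MLX had a log2 fold change of -1.82 (SE 0.39, 95% interval -2.70 to -0.94, adjusted p = 0.00809, edgeR), so that control was 3.53 times CYT by the group means. MLX was called lower in all 16 other fits, with log2 fold changes from -2.29, without CYT replicate 3, to -1.56, without CYT replicate 2.

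MLX shares 770 exonic bases with PSMC3IP, a recombination factor gene on the opposite strand. PSMC3IP rose, with 224, 167 and 244 reads without and 685, 680 and 650 reads with CYT (log2 fold change 1.88, SE 0.33, adjusted p = 0.00336, edgeR). Its gain of 36.0 CPM was 27.3% of the loss of 132 CPM of MLX. The use of strand in counting was not stated, so reads of the shared bases cannot be told apart, and the part of PSMC3IP in the result of MLX was not tested.

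MLXIP (ENSG00000175727; chromosome 12, 122078722 to 122147347, plus strand) encodes MondoA. MLXIP was at 111, 80.4 and 74.7 CPM without and 86.7, 15.9 and 78.2 CPM with CYT. CYT replicate 2 was far below the other libraries, and the other CYT libraries lay within the control range. Its log2 fold change was -0.56 (95% interval -1.75 to 0.63, adjusted p = 0.465, edgeR), and it was -0.11 without CYT replicate 2 (adjusted p = 0.775, edgeR) and -0.92 without CYT replicate 1 (adjusted p = 0.310, edgeR). The GC content and length correction gave -0.32 and the replicate block -0.84, neither of them called. Of the target genes of MondoA, ARRDC4, an arrestin-domain protein, rose from 2.04 ± 0.658 to 11.1 ± 5.20 CPM (SD, n = 3 each). Its log2 fold change was 2.43 (SE 0.46, adjusted p = 0.00465, edgeR), and it was called in all 16 other fits. TXNIP, an inhibitor of thioredoxin and glucose uptake, was at 75.2 ± 2.29 CPM in control and 128 ± 19.2 CPM in CYT-treated cells (SD, n = 3 each). TXNIP missed the threshold (log2 fold change 0.77, adjusted p = 0.0604, edgeR), though it was called higher with the replicate block (adjusted p = 0.0343, edgeR) and in 4 other fits. With the GC content and length correction its log2 fold change was 0.50 (adjusted p = 0.0732, edgeR), and no fit with 1 library left out called it (adjusted p from 0.0527 to 0.173, edgeR).

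To set the members' levels side by side, the CPM was divided by the exonic length of GENCODE release 29, since the lengths behind the deposited FPKM were from 1.30 to 3.37 times that length. In control cells MLX was highest on this scale, at 43.3 CPM per kb, followed by MXD4 at 13.7, MXD3 at 8.29, MLXIP at 6.38 and MAX at 6.14. MXI1 at 2.43, MNT at 2.32, MYC at 1.99, MXD1 at 1.28 and MGA at 0.898 CPM per kb were lower. The libraries of neighbours in this order did not overlap between MLX and MXD4, between MAX and MXI1, and between MXD1 and MGA. All other neighbours overlapped. In CYT-treated cells MXD4 was highest at 20.9 CPM per kb and MLX was next at 12.2, MXD1 was at 4.83, and only MNT and MGA, the last in order, did not overlap as neighbours.

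The share of MYC among the transcripts that encode MAX partners depended on the library and on the scale. Of the summed FPKM of MYC, MXD1, MXD3, MXD4, MXI1, MNT and MGA, MYC took 3.11%, 2.66% and 3.42% without and 1.48%, 6.38% and 8.29% with CYT. On the scale per kb of exonic length its share was 6.33 ± 0.743% in control and 10.4 ± 6.81% in CYT-treated cells (SD, n = 3 each). On that scale MYC took 16.6% in CYT replicate 3, next after MXD4. The CYT libraries lay on both sides of the control range on both scales. MXD4 took the largest share of the summed FPKM in all 6 libraries, from 48.5% to 58.9% without CYT. It took 59.6% and 60.9% in CYT replicates 1 and 3, above the control range. In CYT replicate 2 it took 29.7%, while MXD1 took 16.8% and MXI1 took 19.3%. With MYCL added to the sum per kb, MYCL took 0.998% to 2.60% of it without and 11.02% to 20.2% with CYT. These shares describe transcripts, not proteins, and no test was made on them.

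**Figure D4:**
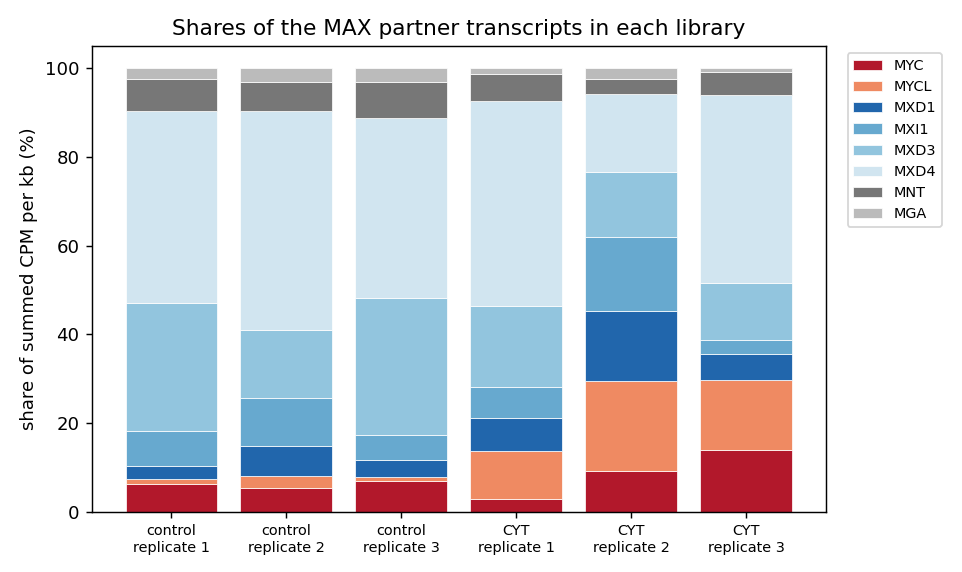
Stacked bars give the share of each gene in the summed CPM per kb of exonic length of 8 MAX partner genes (vertical axis, percent), with 1 bar for each library. MXD4 is the largest part of each control bar, and MYCL grows from at most 2.60% in control to at least 11.02% in CYT libraries.

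The cofactors, regulators and targets of the network were described with 10 lists of 101 genes. Of the 95 genes that passed the filter, 15 were called lower and 7 higher, beside 12.9% and 15.7% of all genes tested. With the replicate block these were 25 and 13, and the block raised the shares over all genes as well, to 19.8% lower and 20.04% higher. Of 17 coactivators that MYC binds, 4 were lower and 0 higher, with a median log2 fold change of -0.46. With the replicate block 7 were lower and 1 was higher, and with the GC content and length correction 6 were lower and 3 higher. Of all genes tested, 26.1% were lower and 19.7% higher with that correction. The number lower was 2 without any one of control replicates 1 and 3 and CYT replicates 1 and 3. SMARCB1, a SWI/SNF subunit, fell by 1.84 and WDR5, a histone methyltransferase subunit that anchors MYC to chromatin, fell by 1.46 on the log2 scale (adjusted p = 0.0103 and 0.00558, edgeR), and both were called in all 16 other fits. KAT5, an acetyltransferase, and TRRAP, the scaffold of acetyltransferase complexes, fell by 1.41 and 0.95 (adjusted p = 0.0451 and 0.0393, edgeR), and were called in 9 and 8 of the 16 other fits.

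On the repressor side, 1 of 13 genes of the SIN3 and HDAC complexes that MXD proteins recruit was higher and 0 were lower (median 0.18), beside 15.7% and 12.9% of all genes tested. With the GC content and length correction 4 were higher and 3 lower (median 0.029), beside 19.7% and 26.1% of all genes and their median of -0.15 in that fit. The gene called without the correction was SIN3A, the scaffold that binds the MXD proteins and MNT, at a log2 fold change of 0.93 (SE 0.28, adjusted p = 0.0338, edgeR). It was called in 10 of the 16 other fits and lost its call without any one library other than CYT replicate 2. Of 9 partners of MGA in its Polycomb complex, 1 was higher and 0 lower (median 0.18), and 3 were higher with a median of -0.14 under that correction. YAF2, a subunit of that complex, had a log2 fold change of 1.18 (adjusted p = 0.0376, edgeR), and it was also called in 10 of the 16 other fits. YAF2 lost its call without any one of the control replicates or CYT replicate 3, which left 0 genes of this list called. With 1 library left out, the median of the first list lay between 0.048 (without CYT replicate 2) and 0.38 (without CYT replicate 3), and that of the second between 0.079 (without control replicate 1) and 0.36 (without CYT replicate 3). With the replicate block, 2 were higher and 1 lower in the first list, and 2 were higher in the second. In that fit 20.04% of all genes tested were higher and 19.8% lower.
Of 18 genes that act on the turnover of MYC protein, 1 was lower and 0 higher (median -0.035), beside 12.9% and 15.7% of all genes tested. With the replicate block 3 were lower and 1 higher, beside 19.8% and 20.04% of all genes in that fit. With the GC content and length correction 4 were lower and 2 higher, beside 26.1% and 19.7% of all genes. Without CYT replicate 2, 3 were lower, and without control replicate 2, 2 were lower and 1 higher. The sign of this median changed between fits, from -0.12 without control replicate 3 to 0.12 with upper-quartile normalization. PLK1, a mitotic kinase, fell by 3.13 in log2 terms (SE 0.33, adjusted p = 0.00054, edgeR), from 290 ± 46.2 CPM to 33.1 ± 8.82 CPM (SD, n = 3 each). FBXW7, the ubiquitin ligase subunit that recognises MYC, had a log2 fold change of 0.27 and was not called (adjusted p = 0.587, edgeR). It was named after its value was seen.

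Of 34 genes known to be activated by MYC, 32 were tested, 10 were lower and 1 was higher, against 12.9% and 15.7% of all genes tested. Among the 10, TERT passed the filter through the control libraries alone, and without it 9 of 31 were lower, with a median of -0.36. With TERT the median log2 fold change was -0.42, and 25 of the 32 had a negative value, against 24 of 31 without it. The counts and medians of the other fits include TERT, which was called lower in all 15 of them that tested it. The number lower was 7 without control replicate 1 or 3, 8 without CYT replicate 1 and 9 without CYT replicate 3. In these fits 33 of the genes were tested. Of 32 tested, 9 were lower without control replicate 2 and 14 without CYT replicate 2. The median was -0.73 without CYT replicate 2, and lay between -0.60 and -0.46 without any other library. It was -0.27 with upper-quartile normalization and -0.25 with the filter at a mean of 5 CPM. With the GC content and length correction 15 were lower and 4 higher, beside 26.1% and 19.7% of all genes tested in that fit. Among 13 genes of the nucleolus, 4 were lower and 0 higher, with a median of -0.91. With the replicate block 7 were lower, beside 19.8% of all genes in that fit. With the GC content and length correction 8 were lower and 1 higher, beside the 26.1% and 19.7% given above. RRS1, a ribosome assembly factor, fell by 1.82, POLR1B, a subunit of RNA polymerase I, by 1.77 and BOP1, a ribosome processing factor, by 1.73 on the log2 scale (adjusted p = 0.00287, 0.00282 and 0.0152, edgeR). DKC1, a pseudouridine synthase, fell by 1.40 (adjusted p = 0.0133, edgeR). RRS1 and POLR1B were called in all 16 other fits, whereas BOP1 lost its call without control replicate 1 and DKC1 without control replicate 3 or CYT replicate 3. NCL and NPM1, the abundant nucleolar proteins, had log2 fold changes of -0.30 and -0.16 and were not called, and both were named after their values were seen.

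Among 13 metabolic targets, 4 were lower and 0 higher, beside 12.9% and 15.7% of all genes tested. DESeq2, upper-quartile normalization, the filter at a mean of 5 CPM and the replicate block each called 1 higher, and the GC content and length correction called 2. Their median was -0.31, and between fits it ran from -0.16 with upper-quartile normalization to -0.59 with the GC content and length correction. The medians of all genes in those fits were 0.16 and -0.15. With 1 library left out it lay between -0.48, without CYT replicate 1 or 2, and -0.23, without CYT replicate 3. IMPDH2, of guanine nucleotide synthesis, fell by 2.25, LDHA, lactate dehydrogenase, by 1.98 and CAD, of pyrimidine synthesis, by 1.75 on the log2 scale (adjusted p = 0.00129, 0.00132 and 0.00858, edgeR). Each of these was called in all 16 other fits. ENO1, a glycolytic enolase, fell by 1.01 (adjusted p = 0.0300, edgeR) and was called in 12 of them. Among 8 targets of growth and the cell cycle, 6 were tested. TERT, the catalytic subunit of telomerase, had 68, 31 and 37 reads without and 0, 0 and 5 reads with CYT. All its CYT counts were under the minimum of 10, so its own test is not used as a result, though list counts given above include it. Of the other 5, 1 was lower and 1 higher. CDK4, a kinase of the G1 phase, fell by 0.93 (adjusted p = 0.0298, edgeR, called in 11 of the 16 other fits). E2F1, a factor of S-phase entry, rose by 1.36 (adjusted p = 0.0293, edgeR, called in 12 of them), so members of this list moved in both directions. CDK4 lost its call without control replicate 1, 2 or 3 or CYT replicate 1, and E2F1 lost its call without control replicate 2 or 3 or CYT replicate 1 or 3.

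Of 5 genes known to be repressed by MYC, 3 were tested, 2 were higher and 0 lower, beside 15.7% and 12.9% of all genes tested. The number higher was 1 without any single library other than CYT replicate 2. NDRG1, a stress-response gene, rose from 172 ± 23.7 to 553 ± 80.1 CPM (SD, n = 3 each), with a log2 fold change of 1.68 (SE 0.28, adjusted p = 0.00256, edgeR). CDKN1A, the p21 inhibitor of cyclin-dependent kinases, had a log2 fold change of 1.51 (adjusted p = 0.0230, edgeR) and was called in 11 of the 16 other fits. It kept its call without CYT replicate 2 and lost it without any other single library. GADD45A missed the threshold (log2 fold change 0.29, adjusted p = 0.480, edgeR).

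**Figure D5:**
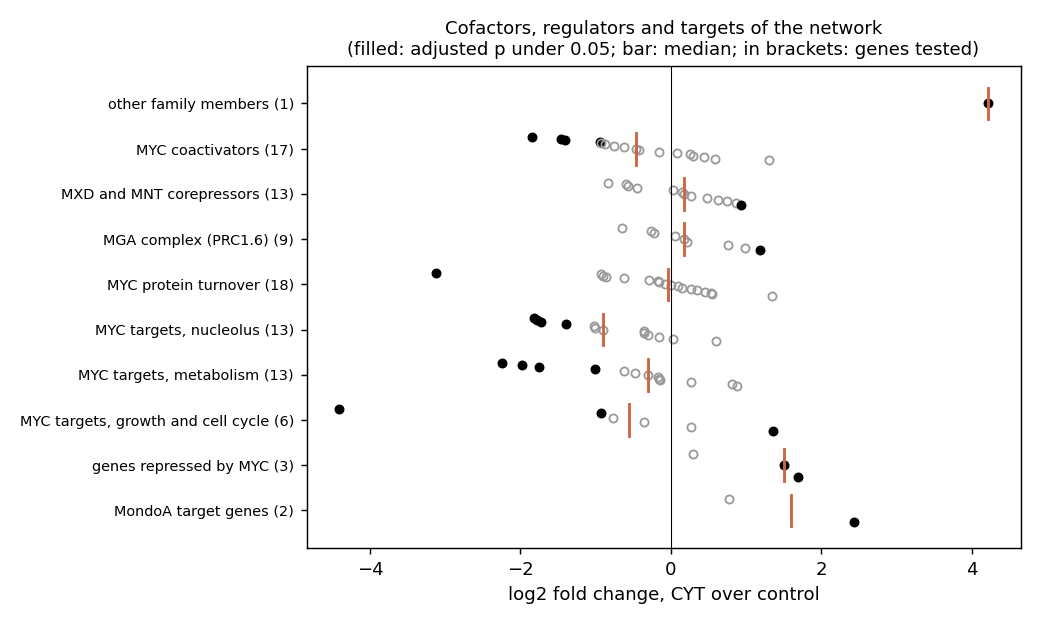
The log2 fold change of CYT over control (horizontal axis) is plotted for each tested gene of the 10 lists, filled where the adjusted p was under 0.05, with an orange bar at the median of each list and the number of tested genes in brackets. The medians of the MYC target lists lie from -0.91 to -0.31, and TERT, a fitted value at low counts, and MYCL are the outermost points.

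Among genes with a mean of at least 20 CPM, those with log2 CPM most like that of MYC over the 6 libraries were TTI1 (r = 0.956), HTRA1 (r = 0.937) and DPM2 (r = 0.937). The genes most like MXD4 were POLDIP2 (r = 0.998), TRIM41 (r = 0.996) and RHOG (r = 0.996), which share with it a low value in CYT replicate 2. These correlations were the highest of all genes compared and describe the 6 libraries only.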

How the data were processed

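RNA of 3 control and 3 CYT-treated samples was sequenced, and each library was 1 replicate of the group its label gives. The authors separated mRNA, removed low-quality, adapter and ribosomal reads, aligned clean reads with Hisat2 and, by their methods, obtained FPKM with Stringtie. The submitters' processing notes name FastQC 0.12.1 and build hg38, whereas the counting program and its use of strand are not given in the sources used here. The authors deposited raw counts and FPKM values per gene. Among 10160 genes whose count reached 50 throughout, the length behind the deposited FPKM differed between libraries by at most 0.00209%, and in 92.1% of 10158 such genes it equalled the summed length of all distinct exons of GENCODE release 29 within 1 bp, overlapping exons counted repeatedly. This held for all 10 members, so FPKM understates genes with many overlapping exons. No column was left unmapped (0 columns).

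The counts were fitted with edgeR 4.0.16 in R 4.3.3 (TMM, filterByExpr with minimum count 10, quasi-likelihood test of CYT against control) and adjusted by the Benjamini-Hochberg method over 15572 genes. Intervals are 95% intervals of the log2 fold change. The members and lists were chosen with earlier results of these data known, and the lists were written by hand. The text names all members, the paralogs, the MondoA targets, and from each other list up to 4 called genes without overlap between the groups, by largest absolute fold change. FBXW7, NCL, NPM1 and GADD45A were added after their values were seen. PSMC3IP, SNRNP27, PRELID1 and RAB24 were named for their overlap with members. Genes most like MYC and MXD4 were ranked by Pearson's r.

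Other settings tried were the replicate block, each library left out, limma 3.58.1 on FPKM in log2 form with 1 or 0.1 added, DESeq2 1.42.0, scaling by upper quartiles, a filter at a mean of 5 CPM or none, restriction to protein-coding genes, and a call that also needed an absolute log2 fold change over 1. Smooth terms for GC content and exonic length (mgcv 1.9.3), with and without the block, a scale per exonic length and a sum with MYCL were added after the data were seen. Deviations from the group means correlated across genes between libraries of the same number (r = 0.188, 0.458 and 0.124), which was taken as pairing from the label numbers and this check alone, although control 1 with CYT 3 (0.303) and control 3 with CYT 1 (0.201) exceeded pairs 1 and 3. Simulated counts were first run through edgeR, edgeR with the block or the GC content and length correction, DESeq2 and limma on log2 CPM. The permutation test, the other filters and scalings, and limma on FPKM were not run on them. Promoters are from RefSeq.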

Additional observations from a re-analysis of the deposited data

How the results depend on the processing

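Requiring an absolute log2 fold change over 1 left 2 members and 19 list genes called. The calls of MXD1, MLX, MYCL and ARRDC4 kept their direction and an adjusted p under 0.05 in all 16 other fits. The 2 members called were 3 without CYT replicate 2 (MXD4 added) and 3 with the replicate block added to the GC content and length correction (MNT added), so that 2 were higher in each case, and leaving out a library gave from 1 to 2 higher members. The 22 called list genes (15 lower, 7 higher) were 38 with the replicate block (25 lower, 13 higher), 48 with the GC content and length correction (28 lower, 20 higher) and 50 with both (31 lower, 19 higher). The shares over all genes rose too, from 12.9% lower and 15.7% higher to 19.8% and 20.04% with the block, 26.1% and 19.7% with the correction and 25.8% and 19.3% with both. DESeq2 called 11 higher. With a library left out, from 13 to 30 were called, 10 to 22 lower and 3 to 8 higher. The total was 14 without control replicate 1 and 13 without control replicate 3, and higher genes were 4, 3, 4 and 4 without control replicates 1 and 3 and CYT replicates 1 and 3. The highest total, 30, was without CYT replicate 2. Each fit with a library left out had fewer libraries, and the cause of these changes was not tested. The replicate block changed no call of a member. Without TERT, which passed the filter through the control libraries alone, 14 list genes were lower in place of 15. The counts of the other fits include TERT where it was tested.

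The share of MYC among the MAX partner transcripts, 3.07% in control and 5.38% in CYT libraries by FPKM, was 6.33% and 10.4% per kb of exonic length. The sign of MAX (0.076) changed to -0.018 with the GC content and length correction and -0.025 with the block as well. The sign of MXD3 (0.019) changed to -0.034 without a filter, and leaving out a library gave values between -0.37 and 0.32. TXNIP was called by DESeq2 and with upper-quartile normalization, a mean of at least 5 CPM, the replicate block and protein-coding genes only. Upper-quartile normalization moved the median of all genes from 0.0064 to 0.16, no filter to 0.41 and the GC content and length correction to -0.15. The higher share of called genes was 55.0%, and it was 63.9% with upper-quartile normalization and 43.0% with the GC content and length correction. MLXIPL, CDKN2B and GAS1 did not pass the filter and entered only the fit without one, and MYCN, with no count, entered none. CCND2 and MIR17HG, of the growth and cell cycle list, did not pass the filter with all libraries. Their list had 7 tested genes in place of 6 without control replicate 1 or 3 or CYT replicate 1 or 3. Either CCND2 or MIR17HG thus entered those fits.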

Other observations

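Other factors of the bHLH-zipper class were listed after the data were seen. Of 9, 8 were tested, 1 was lower and 0 higher, with a median log2 fold change of -0.49, beside 12.9% lower and 15.7% higher of all genes tested. With the replicate block 3 were lower, beside 19.8% of all genes. The median was -0.19 without CYT replicate 2, where 1 was higher and 1 lower, and -0.77 without CYT replicate 3. TFAP4, a transcription factor activated by MYC, fell by 2.90 in log2 terms (SE 0.45, adjusted p = 0.00214, edgeR), with 338, 232 and 295 reads without and 35, 18 and 45 reads with CYT. It was called lower in all 16 other fits. TFE3, a lysosomal and metabolic regulator, had a log2 fold change of -1.16 that was not called (adjusted p = 0.0636, edgeR) but was called lower in 5 of the 16 other fits, among them that with the replicate block (adjusted p = 0.00532, edgeR). PVT1, the noncoding gene next to MYC, was at 12.9 ± 2.16 CPM in control and 8.95 ± 0.717 CPM in CYT-treated cells (SD, n = 3 each). The groups did not overlap, and the log2 fold change of -0.52 was not called (adjusted p = 0.237, edgeR). CASC11, on the other side of MYC, had from 0 to 9 counts and did not pass the filter.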
